A study of Homo sapiens with 12 samples.

Results

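The knockout of *MIB1* was compared with the wild-type state in cells whose BMP receptors were kept inhibited, in 6 of the 12 RNA-seq libraries of the study, 3 of MIB1 KO and 3 of MIB1 WT cells. The members were all libraries that the labels place in LDN with BMP4 during the last 24 hours, with Dox (KO BMP-off) or without Dox (WT BMP-off). The cells were MIB1-iKO cells, single-cell clones of the lung cancer cell line NCIH838 that carry a *MIB1* guide RNA and a Cas9 gene switched on by Dox. All 4 groups of the study spent 3 days in 50 nmol/L LDN. KO cells received 0.5 μg/mL Dox during these days and WT cells received 0 μg/mL. For the next 24 hours the BMP-off groups stayed in 50 nmol/L LDN and were given 10 ng/mL BMP4, whereas the BMP-on groups received the same BMP4 with DMSO in place of LDN. Every KO library and no WT library had Dox, so that effects of Dox, of Cas9 cutting and of the loss of MIB1 cannot be told apart. The labels do not say whether replicates were separate cultures, and p values then measure only the spread between these libraries.

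MIB1 is an E3 ubiquitin ligase that is best known for marking Notch ligands for endocytosis, a step that ligands need to activate Notch on the neighboring cell. BMP ligands such as BMP4 bind complexes of type 1 and type 2 receptors, which phosphorylate SMAD1, SMAD5 and SMAD9. These SMADs enter the nucleus with SMAD4 and switch on genes such as the *ID* genes, *SMAD6* and *SMAD7*. LDN is a small molecule that blocks the kinase activity of BMP type 1 receptors. The comparison therefore asked what *MIB1* loss did to the transcriptome while the signal below the receptors was held down.

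Total counts ranged from 22123152 to 28306521 in the WT BMP-off libraries and from 23870748 to 29029025 in the KO BMP-off libraries, and 17188 genes passed the filter on low counts. Replicates of the same group differed in how their counts related to the GC content of genes. Spearman's rho across genes, between GC content and the deviation from the group mean, was -0.43, 0.12 and 0.40 in WT BMP-off replicates 1, 2 and 3. It was 0.15, -0.60 and 0.59 in the KO BMP-off replicates. Across 17090 genes with a GC content, the uncorrected KO effect had a rho of -0.39 with GC content, genes richer in GC having lower values in KO. Values are therefore given from the uncorrected fit and from a fit with a GC correction, in which a smooth GC trend was taken out of each library and rho in the 6 libraries fell to between -0.003 and 0.019. A GC-linked difference shared by all KO libraries would be removed by this correction as well. Of 9 markers of lung epithelium, 5 were above 1 RPKM, among them *KRT7*, *KRT8*, *KRT18*, *EPCAM* and *CDH1*, whereas *NKX2-1* was at 0 in all 6 libraries and *SFTPB* and *KRT19* were close to 0. Summed RPKM of these markers lay between 150 and 156 in WT and between 141 and 154 in KO. Markers of fibroblasts summed to between 2.21 and 3.80 RPKM, those of leukocytes to between 2.10 and 3.19, with *PTPRC* at 0, and those of endothelium to between 0.123 and 0.263. Above 1 RPKM among them were the fibroblast marker *COL1A1* (mean 2.71 in WT and 2.21 in KO) and the leukocyte marker *CD14* (2.30 and 2.18). None of the markers tested passed, and their part in the results was not tested otherwise.

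**Figure D1:**
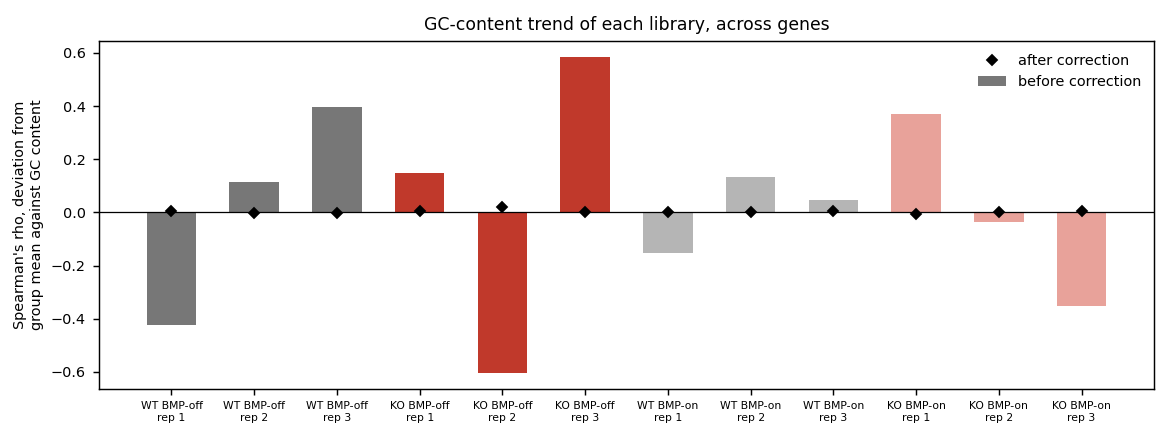
Spearman's rho, across genes, between GC content and the deviation of each library from its group mean (y axis) for the 12 libraries (x axis), before correction (bars, colored by group) and after it (diamonds). Before correction KO BMP-off replicates 2 and 3 lie farthest apart, at -0.60 and 0.59, and after it every library lies near 0.

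With BMP receptors inhibited, few transcripts passed the test of KO against WT cells, and those besides *MIB1* and *S100A8* changed by less than 2-fold. At an adjusted p of at most 0.05 (edgeR quasi-likelihood test, Benjamini-Hochberg adjustment over all genes), 7 genes passed without a GC correction, which is 0.0407% of the genes tested. *SMAD9* was the 1 gene that was higher in KO, and *MIB1*, *S100A8*, *KRT17*, *VTN*, *SLPI* and *QPCT* were lower. With a change of at least 2-fold in addition, 2 genes were called, *MIB1* and *S100A8*, or 0.0116%. With the GC correction 73 genes passed (0.425%), all 7 among them, of which 23 were higher (0.134%) and 50 were lower (0.291%) in KO. The correction moved the share of higher genes from 14.3% to 31.5%. At an unadjusted p of 0.05, 1757 genes passed without and 2173 with the correction. Apart from *MIB1*, 58 of the 72 other genes changed by less than 0.5 on the log2 scale. KO and WT libraries did not overlap in GC-corrected counts scaled to library size (CPM, per 1e+06 counts) for any of these 72, and 16.1% of all genes tested had no overlap.

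**Figure D2:**
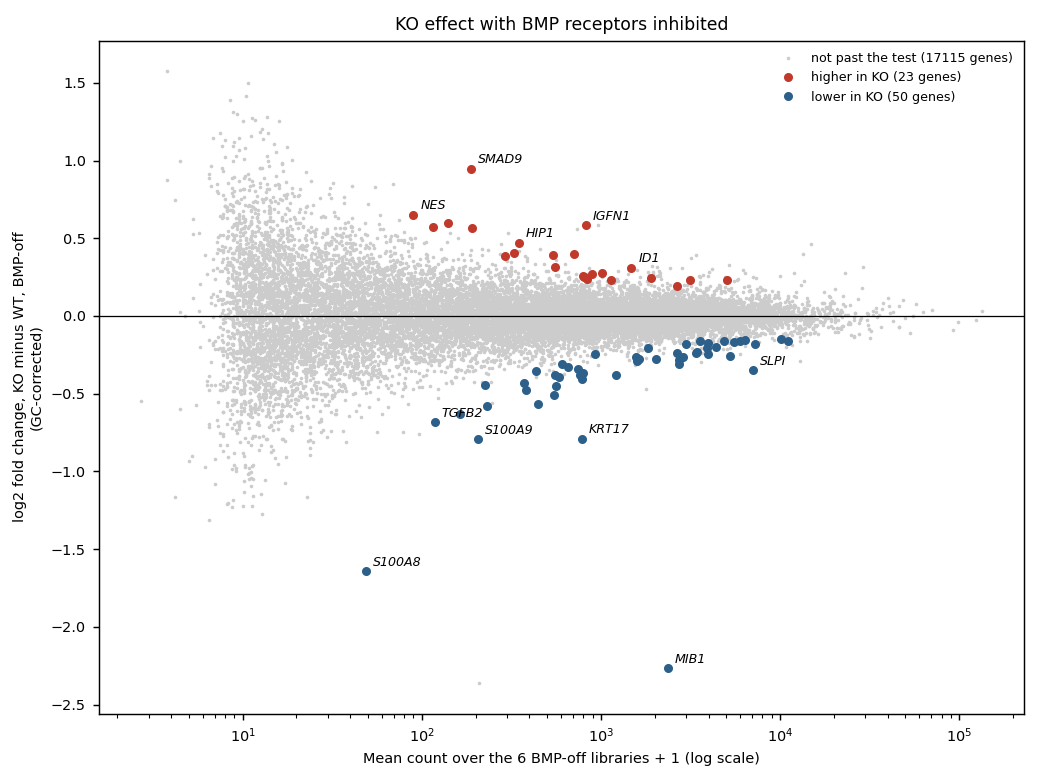
GC-corrected log2 fold change of KO against WT in the BMP-off libraries (y axis) against the mean count over these 6 libraries plus 1 (x axis, log scale), 1 point per gene. The 23 genes past the test and higher in KO are red, the 50 lower ones are blue, and among the colored points *MIB1* at -2.27 and *S100A8* at -1.64 lie lowest.

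The targeted gene was lower in all KO libraries. *MIB1* (ENSG00000101752, chromosome 18, 21704957 to 21870953, plus strand, GRCh38) had 176, 144 and 154 CPM in the WT BMP-off libraries and 34.2, 34.4 and 32.5 CPM in the KO BMP-off libraries. KO cells thus kept 21.4% of the WT transcript level, and the log2 fold change was -2.23 (SE 0.07, 95% CI -2.38 to -2.07, adjusted p = 1.85e-11). In these bulk libraries, fewer cells that hold the transcript and less of it per cell cannot be told apart. In the BMP-on libraries the GC-corrected log2 fold change was -2.32, against -2.27 in BMP-off, and the difference between both effects did not pass the test (0.05, adjusted p = 0.868). The 16 genes tested within 2 Mb of *MIB1* had a median log2 fold change of 0.004 and 0 of them passed the test. Of the 177 genes farther along the long arm of chromosome 18, 1 passed, *MOCOS* (-0.21, adjusted p = 0.0389), and their median was -0.03.

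**Figure D3:**
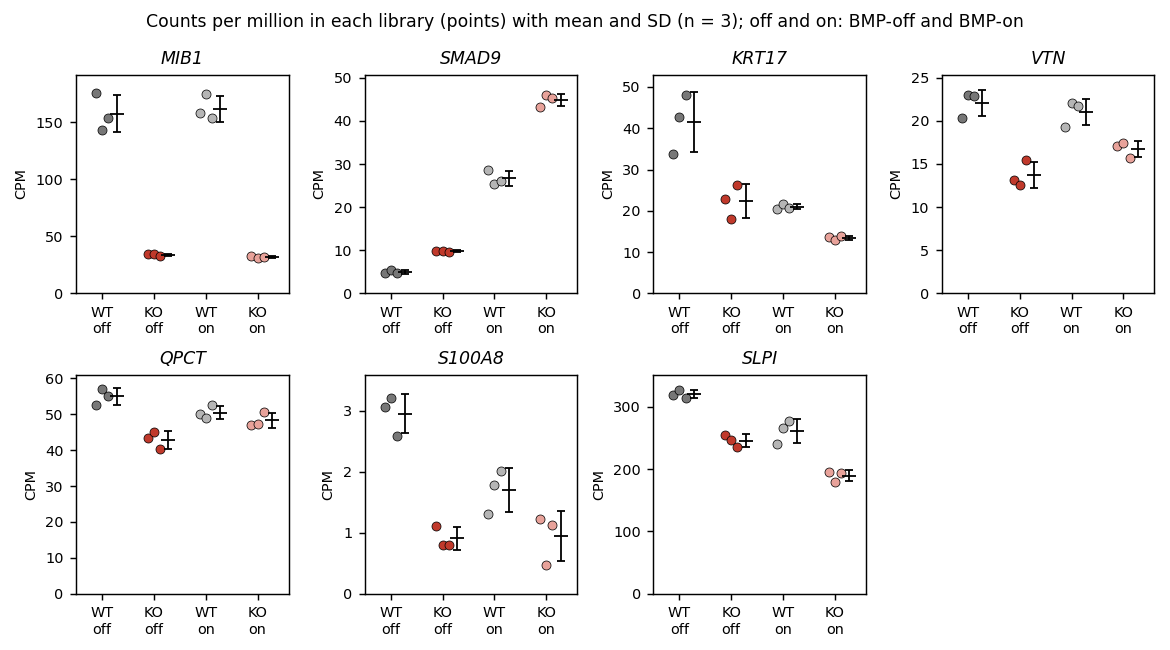
CPM without GC correction (y axis, starting at 0) of the 7 genes that passed the uncorrected test in BMP-off, by group (x axis, off and on for BMP-off and BMP-on), with 1 point per library and the mean and SD beside them. WT and KO libraries in BMP-off do not overlap for any of the 7 genes, and *SMAD9* reaches 43.3 to 46.0 CPM in KO BMP-on.

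Among direct BMP targets, *SMAD9* rose most. It encodes a SMAD of the BMP branch that is itself induced by BMP (ENSG00000120693, chromosome 13, 36844831 to 36920887, minus strand). *SMAD9* had 4.82, 5.52 and 4.73 CPM in WT and 9.94, 9.92 and 9.68 CPM in KO. The lowest KO library was thus well above the highest WT library. The log2 fold change was 0.97 (SE 0.09, adjusted p = 5.65e-05) without and 0.95 (SE 0.09, adjusted p = 1.96e-06) with the GC correction. It was past the test under all 24 alternatives, between 0.56 and 1.04. With BMP-on the same gene had a mean of 26.7 CPM in WT cells and of 44.9 CPM in KO cells, so that KO cells with inhibited receptors stayed below WT cells with BMP-on.

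*ID1*, an inhibitor of differentiation that binds basic helix-loop-helix factors, passed the test only with the GC correction. Before it, *ID1* had 48.6, 56.6 and 59.8 CPM in WT and 69.8, 51.6 and 68.3 CPM in KO, so that KO replicate 2 lay among the WT libraries (log2 fold change 0.20, adjusted p = 0.546). KO replicate 2 was also the library with a GC trend of -0.60. After the correction the values were 52.0, 55.6 and 57.1 CPM in WT and 74.0, 63.7 and 65.9 CPM in KO, which no longer overlapped (0.31, SE 0.06, adjusted p = 0.0121). This call was lost without WT BMP-off replicate 2 (adjusted p = 0.0694) and without KO BMP-off replicate 1 (adjusted p = 0.12).

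The regions just upstream of *SMAD9* and *ID1*, the 2 BMP targets past the test, are shown together with those of the 3 higher genes with the largest change whose upstream region held GGCGCC, a GC-rich sequence that SMAD1 and SMAD5 can bind. Each is the 250 bases before a RefSeq start (GRCh38.p14), 5′ to 3′ on the strand of the gene, with GGCGCC and TATAAA in capitals.
SMAD9 (chr13:36920239-36920488, minus strand): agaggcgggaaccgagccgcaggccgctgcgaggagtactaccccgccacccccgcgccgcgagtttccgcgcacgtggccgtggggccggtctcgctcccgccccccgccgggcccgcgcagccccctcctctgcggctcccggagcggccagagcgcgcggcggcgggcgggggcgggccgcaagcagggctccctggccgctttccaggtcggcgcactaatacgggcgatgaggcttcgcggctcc
ID1 (chr20:31605039-31605288, plus strand): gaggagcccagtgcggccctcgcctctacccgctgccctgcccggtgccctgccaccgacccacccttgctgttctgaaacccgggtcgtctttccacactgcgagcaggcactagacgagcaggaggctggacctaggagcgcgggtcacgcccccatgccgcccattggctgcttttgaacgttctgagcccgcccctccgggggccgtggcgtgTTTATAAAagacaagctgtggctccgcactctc
IGFN1 (chr1:201190574-201190823, plus strand): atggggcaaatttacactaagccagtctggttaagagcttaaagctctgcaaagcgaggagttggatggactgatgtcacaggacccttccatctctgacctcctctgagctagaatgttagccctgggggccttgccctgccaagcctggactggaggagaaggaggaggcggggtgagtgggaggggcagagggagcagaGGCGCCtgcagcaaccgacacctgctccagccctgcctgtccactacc
MAP1A (chr15:43510704-43510953, plus strand): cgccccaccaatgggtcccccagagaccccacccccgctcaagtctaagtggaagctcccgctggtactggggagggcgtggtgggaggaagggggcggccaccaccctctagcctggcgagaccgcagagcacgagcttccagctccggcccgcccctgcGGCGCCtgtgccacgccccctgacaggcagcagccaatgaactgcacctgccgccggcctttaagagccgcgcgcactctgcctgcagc
HIP1 (chr7:75738942-75739191, minus strand): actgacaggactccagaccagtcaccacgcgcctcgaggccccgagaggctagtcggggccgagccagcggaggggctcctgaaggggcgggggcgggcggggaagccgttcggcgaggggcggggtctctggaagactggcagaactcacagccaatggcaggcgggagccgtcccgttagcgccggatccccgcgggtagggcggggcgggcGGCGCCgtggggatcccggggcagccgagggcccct
The windows of *SMAD9* and *ID1* held 0 matches to GGCGCC, which reads the same on both strands. Sequence beyond these 250 bases was not searched, so that sites farther away would be missed. The *SMAD9* window lies inside the gene span given above, before a RefSeq start that is not the outermost start of the gene. In *ID1* the capitals are TATAAA on 1 strand overlapped by TATAAA on the other. Among the genes with a listed start, 18 of the 23 higher and 38 of the 50 lower, GGCGCC stood at 13 of 30 starts of higher genes (43.3%) and at 12 of 51 starts of lower genes (23.5%). It stood at 24.5% of the 16022 starts of all genes tested and at 16.4% of all 35116 starts in the table. By gene, 8 of the 18 higher genes (44.4%), 11 of the 38 lower genes (28.9%) and 31.4% of the genes tested held it at 1 start or more. TATAAA on either strand stood at 2 of 30 starts of higher genes (6.67%), 11 of 51 starts of lower genes (21.6%), 6.03% of the starts of genes tested and 10.7% of all starts. GTCTAGAC, the palindromic SMAD box, stood at 0 starts of either group and at 0.144% of the starts of genes tested. The median GC content of these windows was 69.8% for the higher genes, 65.6% for the lower genes and 64.4% for the genes tested. The starts of a gene can overlap, and these shares are descriptions without a test.

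Of 16 BMP targets listed from general knowledge, 15 passed the filter and *ID4* did not. With the GC correction 2 of the 15 were higher at the adjusted p, 0 were lower, and 13 did not pass. The log2 fold change was positive for 14 of the 15, with a median of 0.36, whereas 50.4% of all genes tested were positive, with a median of 0.001. The values of those that did not pass ranged from -0.54 for *DLX3*, a homeobox gene with a mean of 1.7 counts, to 0.53 for *SMAD6*. *SMAD6*, an inhibitory SMAD, had 5.17, 4.04 and 5.28 CPM in WT and 6.84, 6.47 and 6.14 CPM in KO, without overlap (GC-corrected 0.53, SE 0.14, adjusted p = 0.0797). *ID2*, a relative of *ID1*, had 8.88, 9.78 and 9.73 CPM in WT and 12.3, 11.6 and 14.2 CPM in KO, also without overlap (0.47, SE 0.11, adjusted p = 0.0688). *SMAD7*, the other inhibitory SMAD, had a value of 0.33 (adjusted p = 0.22). *ID3* was close to 0 at 0.02 (SE 0.09, adjusted p = 0.953), and its sign depended on the setting. *SMAD6*, *SMAD7*, *ID2*, *NOG*, *BAMBI* and *CDKN1A* were positive under every alternative and passed the test under 0 of them, except *ID2*, which passed under 1.

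The KO effect on 3 of these 15 genes was smaller in BMP-off than in BMP-on by the test of the difference itself, which 1.51% of all genes tested passed. From these same libraries the study had already picked out *BAMBI*, *NOG* and *CDKN1A* as genes whose BMP response was stronger in KO. The count of 3 is therefore not independent evidence. *BAMBI*, a decoy receptor of the TGF-β family, had GC-corrected log2 fold changes of 0.25 in BMP-off and 1.20 in BMP-on (difference -0.95, adjusted p = 0.000534). *HEY1*, a transcriptional repressor that is also a Notch target, had 0.36 and 1.27 (adjusted p of the difference 0.000719). *CDKN1A*, the cell cycle inhibitor p21, had 0.22 and 0.83 (difference -0.61, adjusted p = 0.00686). In the BMP-on libraries all 15 were positive, with a median of 0.71. Of these, 13 were past the GC-corrected test, while 7.42% of all genes tested passed in either direction. For *SMAD9* the difference of 0.18 (adjusted p = 0.49), for *ID1* that of 0.02 (adjusted p = 0.954) and for *ID2* that of -0.05 (adjusted p = 0.919) did not pass, with 95% CIs from -0.04 to 0.40 for *SMAD9* and from -0.35 to 0.25 for *ID2*. A further list of 11 genes was drawn from the study, 9 of them on the list above, besides the receptors *ACVR1* and *BMPR2*, which it names for a separate experiment. For these RNA-seq data the study's text names *BAMBI*, *NOG*, *CDKN1A* and *SMAD9*, and in a separate RNA-seq experiment the *ID* genes as a group. *SMAD6* and *SMAD7* are named elsewhere in its text. With the GC correction 2 of the 11 passed, *SMAD9* and *ID1*, and all 11 were positive. Since the study chose genes among the 9 on these libraries, their direction is not independent evidence.

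**Figure D4:**
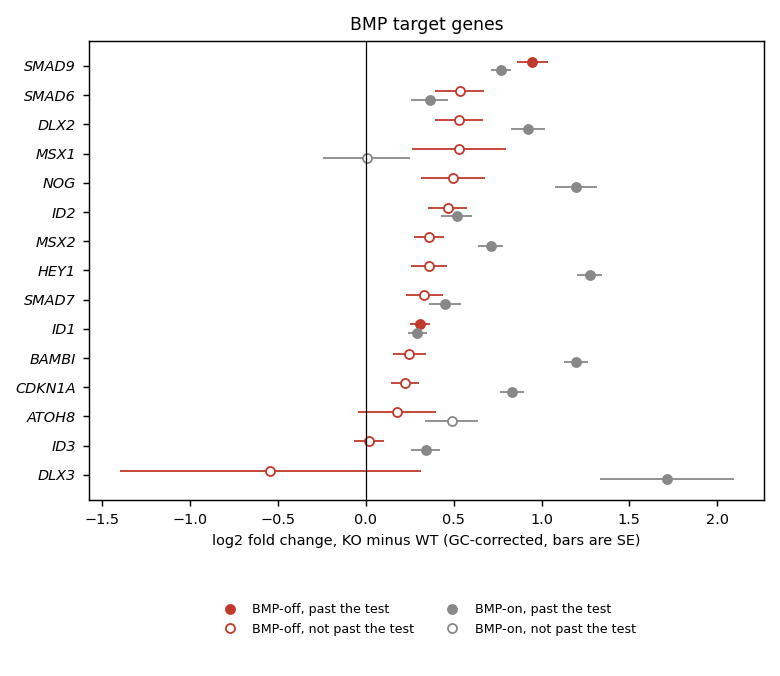
GC-corrected log2 fold change of KO against WT with its SE (x axis) for the 15 BMP targets tested (y axis), in BMP-off (red) and BMP-on (gray), with filled points past the test. In BMP-off 14 values are positive and 2 are past the test, and in BMP-on 13 are past it.

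In BMP-off, transcripts of the receptors and of the SMADs that they act on did not pass the test. Of 12 receptors and coreceptors tested, 0 were called, and the median was -0.01. *BMPR2*, the type 2 BMP receptor, had 169, 140 and 145 CPM in WT and 168, 180 and 157 CPM in KO, which overlapped. Its log2 fold change was 0.15 without (95% CI -0.01 to 0.31, adjusted p = 0.512) and 0.11 with the GC correction (95% CI -0.02 to 0.24, adjusted p = 0.492). *ACVR1*, a type 1 receptor, had 52.4, 47.2 and 49.8 CPM in WT and 54.6, 54.8 and 48.8 CPM in KO, and its GC-corrected value was 0.04 (95% CI -0.07 to 0.14). Both intervals end well below a log2 fold change of 1. In BMP-on, *BMPR2* and *ACVR1* were the 2 of the 12 that were higher in KO past the GC-corrected test, and 1 was lower. In that test 7.42% of all genes passed. Without the correction 0 of the 12 were higher and 1 was lower. The receptor list ranged from -0.34 for the coreceptor *RGMA* (adjusted p = 0.764) to 0.23 for *ACVR2B* (adjusted p = 0.149). The 5 receptor-regulated and common SMADs lay between -0.14 (*SMAD1*) and 0.07 (*SMAD5*), and 0 of them passed.

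Of the ligands of the TGF-β family, 12 of 26 passed the filter and 1 was called. *TGFB2*, which signals through SMAD2 and SMAD3, fell. It had 5.68, 5.78 and 5.82 CPM in WT and 3.70, 3.49 and 3.79 CPM in KO, with a tight spread in both groups (GC-corrected -0.68, SE 0.12, adjusted p = 0.00733). Without the correction its adjusted p was 0.0501, and with it the call was lost without WT BMP-off replicate 3 (adjusted p = 0.053). An antisense gene overlaps its exons. *BMP4*, which was also added as protein, had 1.87 CPM in WT and 1.84 in KO, and *BMP6* had a value of -0.10 (adjusted p = 0.543). Of 11 secreted or membrane antagonists 0 passed, with values from -0.33 for *CHRDL2* to 0.50 for *NOG*. The 10 targets of SMAD3 and YAP had a median of 0.03 and 0 calls.

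The lists of other E3 ligases and of the Notch pathway held no call. Of 10 ubiquitin ligases, which include *MIB2*, the paralog of *MIB1* (-0.09, adjusted p = 0.827), *SMURF1* (0.11) and *NEDD4* (0.10), 0 passed. The transcripts of 8 proteins known as MIB1 substrates lay between -0.06 and 0.13, and 0 passed. Of 7 Notch ligands and receptors 0 passed, and *JAG1*, the ligand with the most counts, was at -0.08 in BMP-off (adjusted p = 0.497) and higher in KO in BMP-on (0.19, adjusted p = 0.0115), a difference of -0.28 that passed the test (adjusted p = 0.0372). Of 6 Notch targets 0 passed, with *HES1* at 0.25 (adjusted p = 0.185) and *HES4* at -0.15 (adjusted p = 0.762). *NCSTN*, a subunit of the γ-secretase that cleaves Notch and other membrane proteins, was among the 50 lower genes with a small change of -0.15 (SE 0.03, adjusted p = 0.0459).

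The genes that fell in KO in the uncorrected fit, besides *MIB1*, were those of a keratin, an S100 protein, an antiprotease, an adhesive glycoprotein and an enzyme. *KRT17*, a keratin of basal and stressed epithelium (ENSG00000128422, chromosome 17, 41619442 to 41624842, minus strand), had 33.7, 42.8 and 47.98 CPM in WT and 22.9, 17.96 and 26.2 CPM in KO. All KO libraries were below all WT libraries, although both groups spread widely before the correction. The log2 fold change was -0.89 (SE 0.13, adjusted p = 0.0421) without and -0.79 (SE 0.08, adjusted p = 3.16e-06) with the GC correction. The uncorrected call was lost without WT BMP-off replicate 2 (adjusted p = 0.269), without KO BMP-off replicate 1 (adjusted p = 0.161) and, at adjusted p values from 0.0526 to 0.0948, without each of the 6 BMP-on libraries, whereas the GC-corrected call was kept in every fit. Reads of *KRT17* may be shared with other keratins and their pseudogenes. The other 7 keratins tested did not pass, among them *KRT8* (-0.02) and *KRT18* (0.08).

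*S100A8* and *S100A9* encode the 2 subunits of calprotectin, a calcium- and zinc-binding protein of inflamed epithelium and myeloid cells. *S100A8* (ENSG00000143546, chromosome 1, 153390032 to 153391073, minus strand) had only 47.8 counts per library on average, with 3.05, 3.22 and 2.59 CPM in WT and 1.12, 0.803 and 0.799 CPM in KO. The log2 fold change was -1.69 (SE 0.24, adjusted p = 0.0106) without and -1.64 (SE 0.23, adjusted p = 0.000841) with the correction, and the uncorrected call was lost without WT BMP-off replicate 2 (adjusted p = 0.0975). *S100A9* had 10.7, 11.1 and 9.91 CPM in WT and 6.14, 4.62 and 6.81 CPM in KO, and passed only with the correction (-0.79, SE 0.15, adjusted p = 0.0232). *S100P*, another calcium-binding S100 protein, fell as well (-0.47, SE 0.09, adjusted p = 0.0111). Of 12 S100 genes tested these 3 passed with the correction, all lower, against 0.291% of all genes, and 1 passed without it. The GC-corrected median of the list was -0.08. On the epithelial defense list 3 of 18 genes were lower with the correction (*S100A8*, *S100A9* and *SLPI*) and 2 without it, with a GC-corrected median of -0.06. The chemokine *CCL20* had a value of 0.76 (adjusted p = 0.195) and *IL6* of -0.13 (adjusted p = 0.589).

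*SLPI*, an inhibitor of serine proteases in airway secretions (ENSG00000124107, chromosome 20, 45252239 to 45254564, minus strand), had 319, 327 and 314 CPM in WT and 255, 247 and 235 CPM in KO. The separation was small but wide against the spread, at -0.38 (SE 0.05, adjusted p = 0.00932), although without WT BMP-off replicate 2 the adjusted p was 0.0953 in this fit. *VTN*, the adhesive glycoprotein vitronectin (ENSG00000109072, chromosome 17, 28367284 to 28373091, minus strand), had 20.3, 23.0 and 22.8 CPM in WT and 13.2, 12.6 and 15.5 CPM in KO. Its log2 fold change was -0.68 (SE 0.09, adjusted p = 0.00667) without and -0.56 (SE 0.07, adjusted p = 0.000158) with the correction, and the uncorrected call was lost without WT BMP-off replicate 2 (adjusted p = 0.0878). *QPCT*, which forms pyroglutamate at the ends of peptides (ENSG00000115828, chromosome 2, 37342827 to 37373322, plus strand), had 52.6, 57.2 and 55.1 CPM in WT and 43.3, 45.2 and 40.3 CPM in KO. It fell by 0.36 on the log2 scale (SE 0.06, adjusted p = 0.0421) without and by 0.38 (SE 0.05, adjusted p = 0.000361) with the correction. In all 3 genes no KO library reached a WT library. The uncorrected call of *QPCT* was lost without WT BMP-off replicates 2 (adjusted p = 0.28) or 3 (0.269), without KO BMP-off replicate 1 (0.253) and without each of the BMP-on libraries (adjusted p from 0.0562 to 0.0908), and the GC-corrected call was kept in every fit.

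Among the genes past the GC-corrected test with at least 50 counts on average, the largest decreases after *MIB1*, *S100A9*, *KRT17* and *TGFB2* were those of *TOGARAM2* (-0.63), *TMPRSS3* (-0.58), a membrane serine protease, *VTN*, *TRIM29* (-0.51), *S100P* and *CRYBG2* (-0.45). Of these 10, *MIB1*, *KRT17* and *VTN* also passed without the correction. *TRIM29* had GC-corrected values of 24.8, 26.1 and 29.4 CPM in WT and 19.5, 18.9 and 17.99 CPM in KO (SE 0.08, adjusted p = 0.00284). *CRYBG2* had 26.8, 27.6 and 28.7 CPM in WT and 20.2, 19.02 and 21.2 CPM in KO (SE 0.06, adjusted p = 0.000957). Without the correction its KO libraries lay between 13.7 and 22.2 CPM and it did not pass (adjusted p = 0.272). Smaller decreases were those of *MATN3* (-0.34), *PCSK1* (-0.31), a protease that cleaves prohormones, *RSPO3* (-0.36), a secreted enhancer of Wnt signaling, *CPA4* (-0.26) and *SERPINE2* (-0.23). These 5 were chosen after their values were seen.

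Apart from *SMAD9* and *ID1*, 21 genes rose with the GC correction. *NES*, the intermediate filament protein nestin, had GC-corrected values of 3.22, 2.77 and 2.68 CPM in WT and 4.36, 5.07 and 4.34 CPM in KO (0.65, SE 0.13, adjusted p = 0.0246). *HIP1*, an adaptor of clathrin-dependent endocytosis, had 11.4, 11.04 and 12.3 CPM in WT and 16.2, 16.1 and 15.8 CPM in KO (0.47, SE 0.08, adjusted p = 0.0078). *IGFN1*, an immunoglobulin-like and fibronectin type III domain protein, had 27.7, 29.7 and 23.8 CPM in WT and 37.97, 44.01 and 40.1 CPM in KO (0.58, SE 0.10, adjusted p = 0.0175). In each of these 3 genes all KO libraries lay above all WT libraries, which the rule for naming them required. The other largest increases were *MYH15* (0.60), a myosin heavy chain, *CACNG8* (0.57), a channel subunit, *MAP1A* (0.57), which binds microtubules, *HOXC13* (0.41), a homeobox factor, *ELFN2* (0.40) and *RAB3B* (0.39), a GTPase of secretory vesicles. *CYLD*, a deubiquitinase, rose by 0.19 on the log2 scale (adjusted p = 0.0284), and *ZMAT3*, the 1 gene of 24 p53 targets that passed, rose by 0.27 (adjusted p = 0.0435). *CYLD* was singled out after its value was seen. *IGFN1*, *ELFN2*, *HOXC13* and *CYLD* have an antisense gene over their exons, as do *KRT17*, *ID2*, *CDKN1A*, *NCSTN*, *MATN3*, *RSPO3*, *HMMR*, *TSC22D1* and *C15orf48* among the other genes described.

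Most of the GC-corrected calls were lost when certain libraries were left out. Past the test in each of the 12 fits that left out 1 library were 13 of the 72 genes, *SMAD9*, *KRT17*, *VTN*, *QPCT*, *S100A8*, *CRYBG2*, *SCARA3*, *TM7SF2*, *TRIM29*, *SLPI*, *SPAG9*, *TSC22D1* and *CPA4*. Without WT BMP-off replicate 3, 57 of the 72 calls were lost, without KO BMP-off replicate 1 it was 53, without WT BMP-off replicate 2 it was 50 and without KO BMP-off replicate 2 it was 41. Leaving out KO BMP-off replicate 3 lost 17 and leaving out WT BMP-off replicate 1 lost 1, and any library of the BMP-on groups at most 19. *NES*, *MAP1A*, *CACNG8*, *HOXC13*, *S100P*, *S100A9* and *TOGARAM2* were each lost in the 4 fits without WT BMP-off replicate 2, WT BMP-off replicate 3, KO BMP-off replicate 1 or KO BMP-off replicate 2, at adjusted p values between 0.0535 and 0.207. *HIP1* was lost without WT BMP-off replicate 2 (adjusted p = 0.0694) and without KO BMP-off replicate 1 (adjusted p = 0.061). *IGFN1* was lost without WT BMP-off replicate 3 (adjusted p = 0.0501) and without KO BMP-off replicate 2 (adjusted p = 0.0589). More fits lost other genes named here. *MYH15* and *NCSTN* were lost in 9 of the 12 fits, *FSCN1* in 8, *ZMAT3* and *HMMR* in 7, and *ELFN2*, *RSPO3* and *MOCOS* in 6. The sign of all 73 genes was the same in every one of these fits. Their KO and WT libraries did not overlap, so that leaving out 1 library could hardly change a sign.

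Few genes of the cell cycle passed the test while BMP receptors were inhibited. With the GC correction, 2 of 54 G2/M genes passed, against 0.425% of all genes tested, *HMMR* (-0.17, adjusted p = 0.0435) and the mitotic kinase *AURKA* (-0.15, adjusted p = 0.0175), both lower, and 48 were negative, with a median of -0.04. Without the correction 0 passed and 37 were negative (median -0.03). *CCNB1*, the mitotic cyclin B1, which is not on this list and was picked after its value was seen, was also lower (-0.16, adjusted p = 0.0296). Of 43 S phase genes 0 passed in either fit, and 31 were positive, with a GC-corrected median of 0.03. In the BMP-on libraries 46 of the 54 G2/M genes were lower in KO with the correction (median -0.28), as were 36 of the 43 S phase genes (median -0.23), while 7.42% of all genes passed. Without it these counts were 40 and 29. With the correction the KO effect was less negative in BMP-off than in BMP-on by the test of the difference for 24 of the G2/M genes and 21 of the S phase genes, while 1.51% of all genes tested passed. Without it the test of the difference passed for 1 and 0 of these genes and for 0.0931% of all genes.

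Lists of stress responses held few calls. Apart from *ZMAT3*, 23 p53 targets did not pass, with *GADD45A* at 0.38 (adjusted p = 0.0737), *CDKN1A* at 0.22 (adjusted p = 0.245) and *MDM2* at 0.01 (adjusted p = 0.955). The median of the list was 0.03. Of 18 ATF4 targets 0 passed, with a median of 0.03, and of 12 interferon targets 0 passed, with a median of 0.12. The 13 protein genes of mitochondrial DNA, whose translation Dox can inhibit, had a median of -0.07 and values between -0.14 and 0.12, and 0 passed.

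The BMP-on libraries are separate from the BMP-off ones and measure the same knockout with the signal restored. Of the 72 genes past the GC-corrected test in BMP-off besides *MIB1*, 67 had the same sign in BMP-on. The adjusted p was at most 0.05 there for 51 of them, all of the same sign, and 21 did not pass, while 7.42% of all genes tested passed in BMP-on. Of the 23 higher genes 22 had the same sign and 14 passed, and of the 49 lower ones 45 had the same sign and 37 passed. Over all 17188 genes the GC-corrected effects in BMP-off and BMP-on had a Pearson correlation of 0.13 and a Spearman correlation of 0.11. These are across genes, which are not independent replicates. Both contrasts used the same GC reference and, from the joint model of all 12 libraries, the same estimate of each gene's spread. Calls in BMP-off and BMP-on are therefore not independent of each other.

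**Figure D5:**
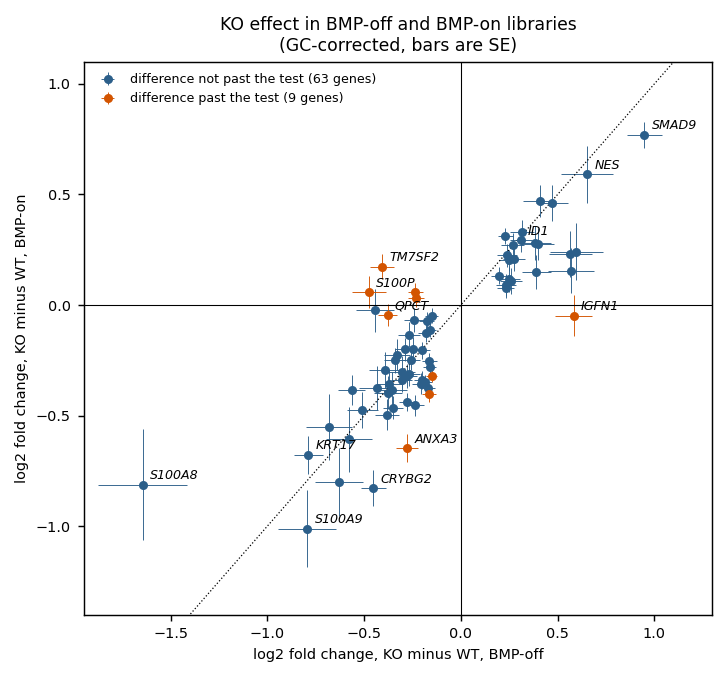
GC-corrected log2 fold change of KO against WT in BMP-off (x axis) and in BMP-on (y axis) for the 72 genes past the test in BMP-off besides *MIB1*, with SE as bars and the line of equal effects dotted. 63 genes have effects whose difference does not pass the test (blue) and 9 have effects that differ (orange), of which 5 have opposite signs in BMP-off and BMP-on, *TM7SF2*, *S100P*, *TSC22D1*, *SERPINE2* and *IGFN1*.

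The GC-corrected KO effect differed between BMP-off and BMP-on for 9 of these 72 genes, against 1.51% of all genes tested. The 72 were chosen on their BMP-off effect, which is part of this difference. A larger share than over all genes can thus follow from the choice, and no conclusion is drawn from it. *TM7SF2*, a reductase of cholesterol synthesis, had GC-corrected values of 36.9, 39.9 and 39.4 CPM in WT and 29.2, 29.1 and 29.3 CPM in KO in BMP-off. It fell by 0.41 on the log2 scale there, while its value in BMP-on was 0.17 (adjusted p = 0.0724). *QPCT* fell in BMP-off and had a value of -0.05 in BMP-on (adjusted p = 0.686). *S100P*, *TSC22D1*, a leucine zipper factor, and *SERPINE2*, an inhibitor of thrombin and plasminogen activators, fell in BMP-off and had values of 0.06, 0.06 and 0.03 in BMP-on. *IGFN1* rose in BMP-off and had a value of -0.05 in BMP-on. For *ANXA3*, *FSCN1* and *AURKA* the decrease was smaller in BMP-off (-0.28, -0.16 and -0.15) than in BMP-on (-0.65, -0.40 and -0.32).

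Of the 18 proteins that the study lists from its proteome of KO cells, the transcripts of 8 were called in BMP-off with the GC correction, against 0.425% of all genes tested, all lower, *MIB1*, *CRYBG2*, *VTN*, *TM7SF2*, *SLPI*, *C15orf48*, *S100A9* and *RHOB*. Without the correction 3 were called, *MIB1*, *VTN* and *SLPI*. The GC-corrected median of the 18 was -0.22. With BMP-on 12 were lower and 4 were higher past the GC-corrected test, while 7.42% of all genes tested passed. That list was chosen on protein levels and not on these libraries. The study's figure legend for this proteome describes cells given Dox for 3 days and names no LDN. Its methods also describe proteomics on cells grown with DMSO or LDN, with or without BMP4 for some minutes. The list itself does not say which of these cells it came from. The cells compared here were kept in LDN and given BMP4 for hours rather than minutes, so that the conditions differ in either case. The list mixes proteins of both directions of change. Of the 8 called, *TM7SF2* was listed as higher in KO, opposite to its transcript here, and the others as lower. No test compared protein directions with these counts. *C15orf48*, a mitochondrial protein, was at -0.28 (SE 0.05, adjusted p = 0.008) and *RHOB*, a small GTPase, at -0.27 (SE 0.05, adjusted p = 0.0239). Of the listed proteins whose transcripts did not pass, *CDKN2C*, an inhibitor of CDK4 and CDK6, was at 0.22 (adjusted p = 0.0692) and *SAA1*, an acute phase protein, at -0.34 (adjusted p = 0.0737).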

How the data were processed

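RNA-seq counts of the 12 libraries came from the deposited table, whole numbers for 58302 Ensembl identifiers, of which 57532 had a symbol in GENCODE v44 and 23684 had 0 counts in every library. The authors discarded ribosomal reads, used GSNAP with the GRCh38 genome, and took counts over exons from HTSeqGenie. A table of RPKM values, normalized by the authors, served for marker levels and alternatives. Whether counting used strand is not given in the sources used here, so that overlapping antisense genes cannot be told apart.

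Counts were fitted with edgeR 4.0.16 in R 4.3.3 (filterByExpr, TMM, robust quasi-likelihood) over all 12 libraries in 4 groups. Adjusted p values are Benjamini-Hochberg values over 17188 genes. The threshold was 0.05, with a log2 fold change of at least 1 for 2-fold calls. In the GC-corrected fit, a loess trend (span 0.4) of each library, relative to the mean library, on GC content (longest transcript per gene) entered the offset. The interaction is the KO effect in BMP-off minus that in BMP-on. The common dispersion was 0.00434. The procedure was tested on simulated data.

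Genes named are those past the uncorrected test, up to 10 per direction by log2 fold change among those past the GC-corrected test with at least 50 counts on average and no overlap, those the study names, and list members with examples. Seurat 5.3.0 supplied the lists for S phase and G2/M, the study lists came from the paper, and the others from general knowledge. Members, lists and the GC correction were chosen with earlier results of these data known. Upstream sequences are from RefSeq. Other settings tried were limma 3.58.1 (voom, or log2 RPKM plus 1 or 0.1), DESeq2 1.42.0, other scalings and filters, only the BMP-off libraries, a replicate term, other GC settings, and each library left out. All sample columns were used.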

Additional observations from a re-analysis of the deposited data

Results flagged for a closer look

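The KO effect differed between BMP-off and BMP-on by the test of the difference itself (edgeR quasi-likelihood test with GC correction, Benjamini-Hochberg adjustment over all genes) for 13 genes among those named and the BMP and Notch lists. Each value is the KO effect in BMP-off minus the KO effect in BMP-on, on the log2 scale. It was -0.95 for *BAMBI* (adjusted p = 0.000534), -0.92 for *HEY1* (adjusted p = 0.000719), -0.61 for *CDKN1A* (adjusted p = 0.00686) and -0.28 for *JAG1* (adjusted p = 0.0372), 4 genes whose KO value was more positive in BMP-on. Among genes that were lower in KO in BMP-off, the difference was -0.58 for *TM7SF2* (adjusted p = 0.0011), -0.53 for *S100P* (adjusted p = 0.0147), -0.33 for *QPCT* (adjusted p = 0.014), -0.29 for *TSC22D1* (adjusted p = 0.0057) and -0.26 for *SERPINE2* (adjusted p = 0.0133). It was 0.37 for *ANXA3* (adjusted p = 0.0234), 0.24 for *FSCN1* (adjusted p = 0.0154) and 0.17 for *AURKA* (adjusted p = 0.0421), which fell in both conditions and more in BMP-on. For *IGFN1*, which rose in BMP-off and had a value of -0.05 in BMP-on, it was 0.63 (adjusted p = 0.0302). An antisense gene overlaps *IGFN1*, *TSC22D1* and *CDKN1A*, and *TM7SF2* shares exons with a neighbor on the same strand.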

How the results depend on the processing

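*MIB1* and *SMAD9* passed under every alternative. Of 7 genes past the adjusted p in BMP-off without GC correction, the count was 35 with DESeq2, 11 with limma-voom, 233 without a filter on low counts, 3 with only the BMP-off libraries, 3 and 4 with log2 RPKM plus 1 and plus 0.1, 73 with GC correction, 6 with a replicate block and 75 with the block and GC correction. Leaving out 1 library gave 2 (WT BMP-off replicate 2) to 50 (KO BMP-off replicate 3), and 40 without WT BMP-off replicate 1. The 2 genes called at 2-fold became 1 with at least 10 counts in every library, 1 with log2 RPKM plus 1, and 2 to 6 (WT BMP-off replicate 1) without 1 library. The 73 GC-corrected genes became 7 without the correction, 46 with only the BMP-off libraries, 44 with limma-voom, 151 with DESeq2 and 1218 with a GC trend taken within groups, which by construction leaves the trend between groups. Leaving out 1 library gave 16 (WT BMP-off replicate 3) to 470 (WT BMP-off replicate 1), with 24 without WT BMP-off replicate 2, 21, 37 and 128 without KO BMP-off replicates 1, 2 and 3. The 16 genes of the uncorrected interaction became 154 with DESeq2, 10 with library size only, 318 without a filter, 3 with the block, 206 with the block and GC correction, 259 with GC correction, and 4 and 2 with log2 RPKM plus 1 and plus 0.1. Leaving out 1 library gave 4 (WT BMP-on replicate 2) to 236 (WT BMP-off replicate 1). The 259 GC-corrected ones became 160 with limma-voom, 1248 with the trend within groups, and 109 (WT BMP-off replicate 3) to 646 (WT BMP-off replicate 1) without 1 library. The causes of these shifts were not tested.

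*ID3* changed sign, from -0.06 uncorrected to 0.0177 with GC correction, 0.0147 with GC correction and the block, and between -0.20 and 0.10 without 1 library (0.01 without WT BMP-off replicate 3, 0.10 without KO BMP-off replicate 2). Same-numbered libraries did not pair: in BMP-off and BMP-on together 2 of 18 pairs had a correlation of deviations above 0.1, and 2 of the 6 BMP-off libraries correlated best with their own number. The median SE of a log2 fold change over all genes was 0.10 without and 0.08 with GC correction.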

Other observations

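*RPS2P46*, a ribosomal protein pseudogene chosen after its value was seen, had the lowest GC-corrected log2 fold change of all genes tested in BMP-off, -2.36 (SE 1.09), with a mean of 209 counts, and did not pass the test (adjusted p = 0.425).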
